A study of Mus musculus with 10 samples.

Results

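The receptors that bind the constant (Fc) part of IgG antibodies, their signalling chain and the neonatal Fc receptor were measured as transcripts in whole Panc02 tumors. The 6 genes, Fcgr1, Fcgr3, Fcgr4, Fcgr2b, Fcer1g and Fcgrt, were chosen by name and found by Ensembl identifier among the 37417 genes of the deposited count table. All 6 passed the filter on low counts, as did 15299 genes in all. The 5 sgCda tumors and the 5 sgNT tumors overlapped for each of the 6 transcripts, and no fold change passed the test. From tumor to tumor, Fcgr1, Fcgr3 and Fcgr4 were high where macrophage markers were high, and NK cell, T cell and skeletal muscle markers were high with them. For Fcer1g, Fcgr2b and Fcgrt no relation with the macrophage markers passed the test.

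Panc02 is a mouse pancreatic ductal adenocarcinoma cell line. The cells carried a doxycycline-inducible Cas9 nuclease and a lentiviral guide RNA, either against Cda, the gene for the pyrimidine salvage enzyme cytidine deaminase (sgCda), or nontargeting (sgNT), and both received the same antibiotic selection and doxycycline pulse. They were grown s.c. in the flank of wild-type C57BL/6J mice aged 12 weeks for 16 days, and no treatment was given per the labels, so the guide in the injected cells is the labelled difference between the groups and host cells are unedited in both. A s.c. tumor is not in the pancreas, the sources used here do not say whether the cells of these tumors were a selected population or clones, and a whole tumor mixes cancer and host cells, so that fewer cells of a type and less RNA per cell cannot be told apart. The sources used here do not say that each tumor grew in a mouse of its own, and p-values measure the spread between these tumors.

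Activating Fc receptors bind antibody-coated cells or particles and signal through a dimer of the common gamma chain, whose immunoreceptor tyrosine-based activation motif (ITAM) is phosphorylated by Src family kinases and then recruits the kinase SYK. FcγRIIB, the inhibitory receptor, carries an inhibitory motif in its own tail that recruits the lipid phosphatase SHIP1. In tumors these receptors are best known on macrophages, where their balance sets how the cells respond to IgG immune complexes and to therapeutic antibodies. Fcgrt encodes FcRn, an MHC class I-like protein that binds IgG and albumin in acidic endosomes and returns them to the cell surface.

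All coordinates are of build GRCm38 (mm10), with gene models from GENCODE M21. Fcgr2b (ENSMUSG00000026656, chr1:170958617-170976547, minus strand), Fcgr4 (ENSMUSG00000059089, chr1:171018920-171029761, plus strand), Fcgr3 (ENSMUSG00000059498, chr1:171051174-171064935, minus strand) and Fcer1g (ENSMUSG00000058715, chr1:171229572-171234365, minus strand) lie within 275.7 kb of chromosome 1, with 7 other protein-coding genes in the interval. Fcgr1 (ENSMUSG00000015947, chr3:96282909-96293969, minus strand) and Fcgrt (ENSMUSG00000003420, chr7:45092990-45103851, minus strand) stand alone on other chromosomes. The longest coding sequence of each gene ran to 1212 bases for Fcgr1, 1107 for Fcgrt, 1020 for Fcgr2b, 801 for Fcgr3, 747 for Fcgr4 and 276 for Fcer1g, the short chain. The only annotated overlap of exons on either strand was with the antisense gene Gm38204, over 155 bases or 2.68% of the exonic bases of Fcgr2b.

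The inhibitory Fcgr2b and the activating Fcgr3 share part of their extracellular coding sequence, which bears on how their reads could be counted. Over 316 aligned coding bases they differed at 3 positions (99.1% identical). The longest identical run is 129 bases, all coding, and crosses an exon junction, with 102 bases in 1 exon (chr1:170967980-170968081 in Fcgr2b and chr1:171057691-171057792 in Fcgr3) and 27 in the next (chr1:170966674-170966700 in Fcgr2b and chr1:171054167-171054193 in Fcgr3). It is printed whole, 5′ to 3′ on the transcript strand, because a 50-base read within it cannot be placed in 1 of these genes.
Fcgr2b and Fcgr3: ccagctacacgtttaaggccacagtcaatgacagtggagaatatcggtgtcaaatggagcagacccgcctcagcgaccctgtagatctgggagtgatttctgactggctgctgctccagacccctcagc
Of the distinct 50-base stretches in the transcripts of Fcgr3, 166 of 1733 (9.58%) also occur in Fcgr2b. In Fcgr2b, 395 of 5685 (6.95%) occur in transcripts of another gene, 166 of them in Fcgr3. The other 4 genes share none. HTSeq does not count reads placed at more than 1 site, so the counts of Fcgr2b and Fcgr3 rest on reads outside the stretches they share. Stretches shared with a gene that overlaps Fcgr2b at its own site, as Gm38204 does, need not be lost. The 6.95% can therefore overstate the loss for Fcgr2b. Values for the pair of Fcgr2b and Fcgr3 are less certain than for the others.

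The promoters of Fcgr1, Fcgr3 and Fcgr4, whose transcripts varied together over the tumors, are shown beside that of Fcgr2b, whose transcript did not vary with them. Each line gives 80 bases before and 20 after a RefSeq transcript start (GRCm38.p6), on the transcript strand, at chr3:96293950-96294049 for Fcgr1, chr1:171059384-171059483 for Fcgr3 (one of its listed starts), chr1:171018846-171018945 for Fcgr4 and chr1:170976052-170976151 for Fcgr2b. The motif searched was GAGGAAG on both strands, letters bound by PU.1, the transcription factor of myeloid cells. It was picked after the sequences had been seen, and capitals mark its match, which lies on the opposite strand in each case.
Fcgr1: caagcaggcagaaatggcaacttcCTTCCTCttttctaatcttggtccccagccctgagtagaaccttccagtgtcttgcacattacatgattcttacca
Fcgr3: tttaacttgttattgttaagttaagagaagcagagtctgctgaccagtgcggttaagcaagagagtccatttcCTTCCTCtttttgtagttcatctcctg
Fcgr4: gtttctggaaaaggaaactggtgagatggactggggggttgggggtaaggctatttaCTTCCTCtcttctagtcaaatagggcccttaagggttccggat
Fcgr2b: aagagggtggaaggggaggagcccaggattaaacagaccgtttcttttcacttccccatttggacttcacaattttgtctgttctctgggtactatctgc
Over the full promoter windows, from 250 bases before to 50 after the start, these exact letters were found in Fcgr1, Fcgr3 and Fcgr4. They were not found in Fcgr2b, Fcgrt or Fcer1g, although the transcript of Fcer1g also varied with the activating receptors. Of all 32851 RefSeq promoters, 4477 (13.6%) hold them. Letters close to the motif were not searched, and the Fcgr2b line holds cttcccc, a near match on the opposite strand. The absence of a match therefore does not show that a promoter lacks such a site. A match is a description of the letters and not evidence of binding.

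The libraries held 28051907 to 39484964 assigned counts. Of the reads that were assigned, ambiguous or in no annotated gene, 10.3% to 18.4% fell in no annotated gene, with the highest share in sgCda 4. Alignments that were not unique are outside this share and stood at 0.684 (sgNT 5) to 0.789 (sgCda 4) per assigned count. Levels below are CPM, the reads of a gene as a share of the assigned reads of its library, after trimmed mean of M values (TMM) scaling. Cda itself was at 10.07, 11.65, 12.79, 14.66 and 11.07 CPM in sgNT 1 to 5 and at 8.34, 8.42, 12.11, 7.47 and 12.46 CPM in sgCda 1 to 5, so that the groups overlapped (log2 fold change −0.30 ± 0.17 SE, unadjusted p = 0.0963 and adjusted p = 0.9996 by the quasi-likelihood test of edgeR). Cda transcript in a whole tumor includes host cells, and edited alleles can still be transcribed. The part of either in these values was not tested. The authors checked the silencing of Cda in their cell lines by RT-qPCR and western blot. The muscle content of the tumors was uneven, with summed CPM of 8 skeletal muscle markers from 2.87 to 488.7 in sgNT and from 2.56 to 1957 in sgCda tumors.

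**Figure D1:**
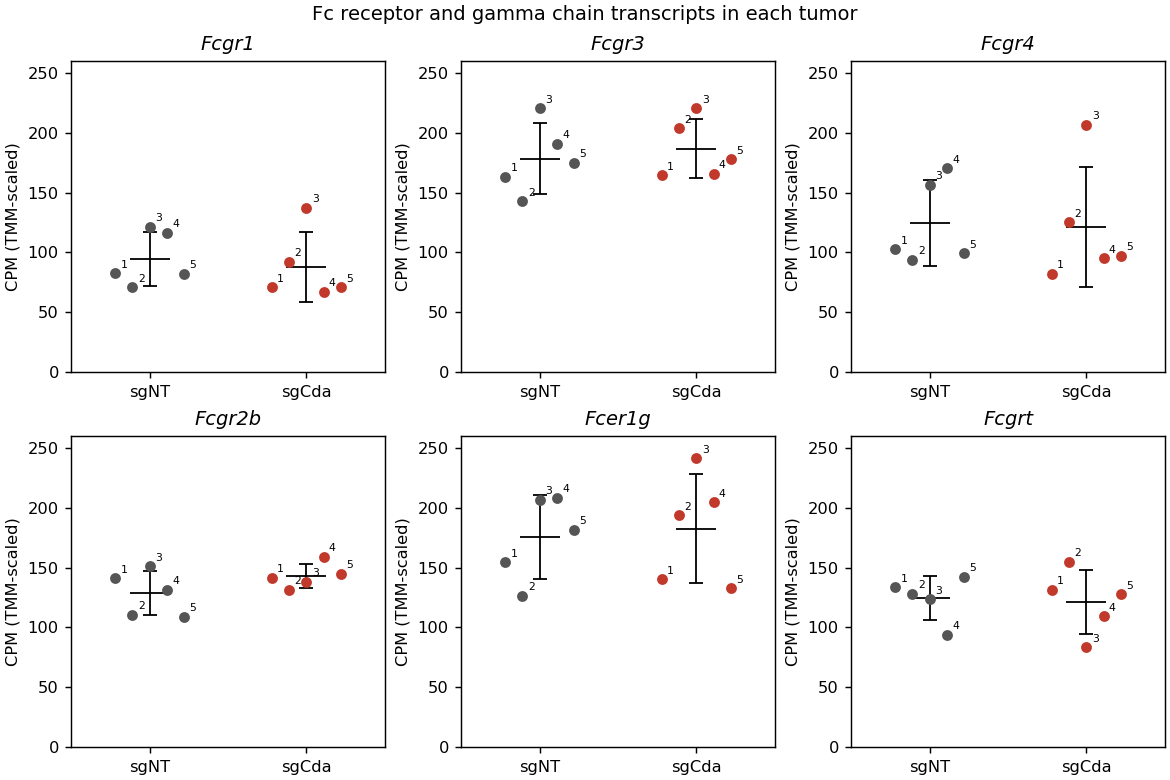
CPM (y axis, TMM-scaled) of each of the 6 transcripts in sgNT (grey) and sgCda (red) tumors; each point is 1 tumor with its replicate number, the line is the mean and the bar ± SD (n = 5). The groups overlap in all 6 panels, and sgCda 3 is the highest tumor for Fcgr1, Fcgr4 and Fcer1g.

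For every one of the 6 genes the fold change missed the threshold of adjusted p under 0.05, and the 2 groups overlapped. The background for both counts was low, since 0% of the 15299 tested genes passed that threshold, 2.50% (382 genes) had an unadjusted p under 0.05 and 0.601% (92 genes) had groups that did not overlap. Of the 6 log2 fold changes, 3 were above 0 and 3 below, with a median of 0.011 against 0.0078 over all tested genes. Each edgeR adjusted p was 0.9996, which was also the smallest over all tested genes.

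Fcgr1 encodes FcγRI (CD64), the high-affinity activating receptor of monocytes and macrophages. It was at 82.38, 71.02, 121.3, 116.3 and 82.22 CPM in sgNT 1 to 5 and at 71.01, 92.23, 137.2, 67.05 and 70.93 CPM in sgCda 1 to 5. The highest and the lowest value were both in sgCda tumors, 2.05-fold apart, and 1 of 5 sgCda tumors (sgCda 3) lay far above its group. Means were 94.65 ± 22.6 CPM (SD, n = 5) for sgNT and 87.68 ± 29.39 CPM (n = 5) for sgCda. The log2 fold change was −0.11 ± 0.22 (SE), with a 95% confidence interval of −0.59 to 0.37, or from 33.6% lower to 29.2% higher (unadjusted edgeR p = 0.625, exact permutation p = 0.595). Without sgCda 3 it was −0.33.

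Fcgr3 encodes FcγRIII (CD16), a low-affinity activating receptor of macrophages, neutrophils and NK cells. Its levels were 163.1, 142.6, 220.6, 190.8 and 175.1 CPM in sgNT 1 to 5 and 164.6, 203.6, 220.7, 165.9 and 178.1 CPM in sgCda 1 to 5. The highest sgNT and the highest sgCda tumor, both replicate 3, were at nearly the same level. Means were 178.4 ± 29.4 CPM and 186.6 ± 24.68 CPM (SD, n = 5 each), a log2 fold change of 0.065 ± 0.12 (SE; 95% confidence interval −0.20 to 0.33; unadjusted edgeR p = 0.609, exact permutation p = 0.556). The sign turned without sgNT 2 (−0.0081) and without sgCda 3 (−0.0034).

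Fcgr4 encodes FcγRIV (CD16-2), an activating receptor of monocytes, macrophages and neutrophils with preference for IgG2 subclasses. Its levels were 102.6, 93.87, 156.7, 170.6 and 99.40 CPM in sgNT 1 to 5 and 82.12, 125.1, 206.6, 94.91 and 97.11 CPM in sgCda 1 to 5. It was the most variable of the 6 transcripts, 2.52-fold between the lowest and the highest tumor, with coefficients of variation of 28.9% in sgNT and 41.5% in sgCda tumors. High tumors (sgNT 3, sgNT 4 and sgCda 3) were found in both groups. Means were 124.6 ± 36.07 CPM and 121.2 ± 50.28 CPM (SD, n = 5 each), a log2 fold change of −0.040 ± 0.26 (SE; 95% confidence interval −0.62 to 0.54; unadjusted edgeR p = 0.882, exact permutation p = 0.833). Without sgCda 3 it was −0.32, and without sgNT 4 it was 0.094. It was above 0 as well without sgNT 3 (0.058), sgCda 1 (0.076), sgCda 4 (0.039) or sgCda 5 (0.032).

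Fcgr2b, the inhibitory receptor of macrophages, B cells and some endothelial cells, was the steadiest of the 6. It was at 141.0, 110.7, 151.0, 131.6 and 108.8 CPM in sgNT 1 to 5 and at 141.6, 131.6, 138.1, 159.3 and 145.0 CPM in sgCda 1 to 5. All 5 sgCda tumors were above the sgNT mean, but sgNT 1 and sgNT 3 lay within the sgCda range, and the lowest and highest tumor were 1.46-fold apart. Means were 128.6 ± 18.56 CPM and 143.2 ± 10.31 CPM (SD, n = 5 each), a log2 fold change of 0.15 ± 0.098 (SE; 95% confidence interval −0.061 to 0.37, or from 4.16% lower to 29.2% higher). Its unadjusted edgeR p was 0.144 and its exact permutation p 0.175, the smallest of the 6 in both tests. In both tests the difference was therefore not beyond the spread between tumors. Over the 19 alternative fits the sign was kept and no adjusted p passed the threshold, while the smallest unadjusted p lay under 0.05.

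Fcer1g encodes the common gamma chain, through which the activating receptors and several C-type lectins signal. Its levels were 154.5, 126.7, 206.9, 208.5 and 181.7 CPM in sgNT 1 to 5 and 140.2, 194.1, 241.8, 204.8 and 132.8 CPM in sgCda 1 to 5. Tumors at the low end (sgNT 2, sgCda 5 and sgCda 1) came from both groups. Means were 175.7 ± 35.13 CPM and 182.7 ± 45.83 CPM (SD, n = 5 each), a log2 fold change of 0.057 ± 0.18 (SE; 95% confidence interval −0.35 to 0.46; unadjusted edgeR p = 0.764, exact permutation p = 0.833). The sign turned without sgNT 2 (−0.042) and without sgCda 3 (−0.065).

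Fcgrt, for the neonatal receptor FcRn, had its own order of tumors. Its levels were 133.7, 128.2, 123.4, 94.07 and 142.4 CPM in sgNT 1 to 5 and 131.7, 154.9, 83.20, 109.6 and 127.7 CPM in sgCda 1 to 5. It was lowest in sgCda 3 and sgNT 4, tumors in which Fcgr1, Fcgr4 and Fcer1g were high. Means were 124.4 ± 18.35 CPM and 121.4 ± 26.77 CPM (SD, n = 5 each), a log2 fold change of −0.034 ± 0.16 (SE; 95% confidence interval −0.38 to 0.31; unadjusted edgeR p = 0.831, exact permutation p = 0.778). It was above 0 without sgCda 3 (0.075), sgNT 5 (0.019) or sgCda 4 (0.000063).

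To compare levels between genes, CPM was divided by the kilobases of annotated exon. Fcer1g stood first at 205.0 ± 44.25 CPM per kb (SD over 10 tumors), above 98.80% of the tested genes, and was above Fcgr3 in 10 of 10 tumors. Next came Fcgr3 (105.1 ± 14.95 CPM per kb) and Fcgr4 (97.84 ± 32.88). Fcgr3 was the higher of the pair in 8 of 10 tumors, and their difference was not tested. Fcgrt followed at 58.46 ± 10.32 CPM per kb, below Fcgr4 in all 10 tumors. Fcgr1 (35.21 ± 9.65) was below Fcgrt in 8 of 10 tumors, and Fcgr2b (23.47 ± 2.78) was below Fcgr1 in 9 of 10. The annotated exons of Fcgr2b sum to 5790 bases over several transcripts, against 874 bases for Fcer1g, and a gene whose long exons are little used has its level per kb understated.

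Since activating receptors and Fcgr2b bind overlapping IgG ligands, the log2 ratio of each activating transcript to Fcgr2b was taken within each tumor, where library scaling cancels. The ratio of Fcgr1 to Fcgr2b was −0.78, −0.64, −0.32, −0.18 and −0.40 in sgNT 1 to 5 and −0.996, −0.51, −0.010, −1.25 and −1.03 in sgCda 1 to 5. Below every sgNT tumor lay sgCda 1, sgCda 4 and sgCda 5, and above every one lay sgCda 3. The sgNT mean was −0.46 ± 0.24 and the sgCda mean −0.76 ± 0.50 (SD, n = 5 each), and their difference of −0.30 was within the spread (exact permutation p = 0.262, 0.548 after Benjamini-Hochberg adjustment over the 3 ratios). Without sgCda 3 the difference was −0.48 with an unadjusted exact p of 0.0397, so that this 1 tumor decides on which side of 0.05 the unadjusted value falls.

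For Fcgr4 to Fcgr2b the ratio was −0.46, −0.24, 0.053, 0.37 and −0.13 in sgNT 1 to 5 and −0.79, −0.074, 0.58, −0.75 and −0.58 in sgCda 1 to 5. The sgCda tumors thus reached both lower and higher than the sgNT tumors, with means of −0.32 ± 0.58 against −0.080 ± 0.31 (difference −0.24, exact permutation p = 0.429, adjusted p = 0.548). For Fcgr3 to Fcgr2b the sgNT mean was 0.47 ± 0.18 and the sgCda mean 0.38 ± 0.27 (SD, n = 5 each; difference −0.093, exact permutation p = 0.548, adjusted p = 0.548). The smallest p that all splits of 10 tumors into 5 and 5 allow is 0.00794. Reads from the shared stretch are lost from both genes of this last ratio.

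**Figure D2:**
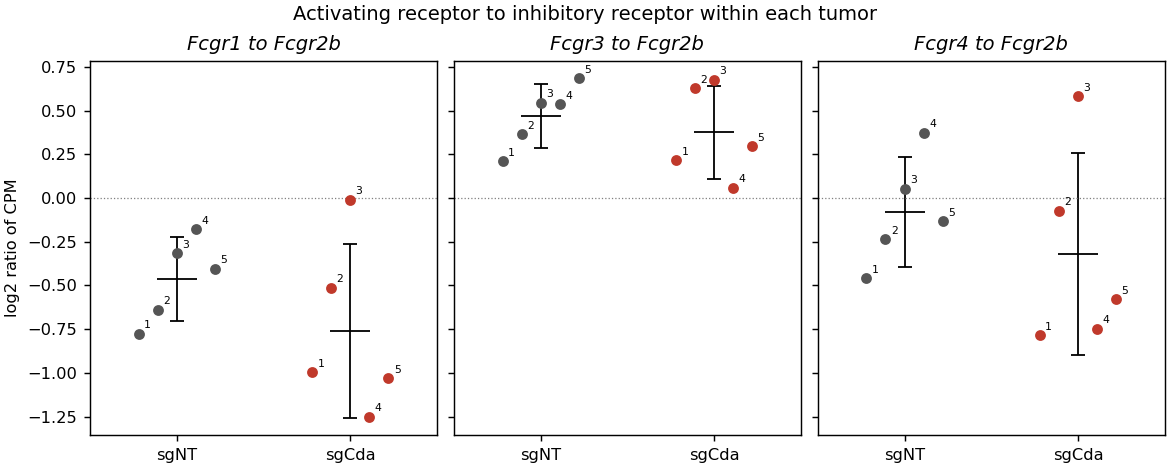
log2 ratio of CPM (y axis) of Fcgr1, Fcgr3 and Fcgr4 to Fcgr2b in each tumor, with the group mean and ± SD (n = 5); the dotted line marks equal CPM. For Fcgr1, sgCda 1, 4 and 5 lie below all sgNT tumors while sgCda 3 lies above them, from −1.25 to −0.010 over the sgCda tumors.

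Variation between tumors was shared by the activating receptors. Over the 10 tumors, the log2 CPM of Fcgr1 and Fcgr4, which lie on different chromosomes, had a Pearson r of 0.970, Fcgr1 and Fcgr3 of 0.848, and Fcgr3 and Fcgr4 of 0.828. Fcer1g had an r of 0.754 with Fcgr1, 0.773 with Fcgr3 and 0.786 with Fcgr4, the receptors that need this chain. Fcgr2b, the chromosome 1 neighbour of Fcgr4, had an r of 0.125 with it, 0.0747 with Fcgr1, 0.331 with Fcgr3 and 0.265 with Fcer1g. Fcgrt was negatively related to Fcgr4 (r = −0.680), Fcgr1 (−0.569), Fcer1g (−0.553), Fcgr3 (−0.348) and Fcgr2b (−0.270). These values describe 10 libraries, and genes of a library share its depth and tissue content.

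**Figure D3:**
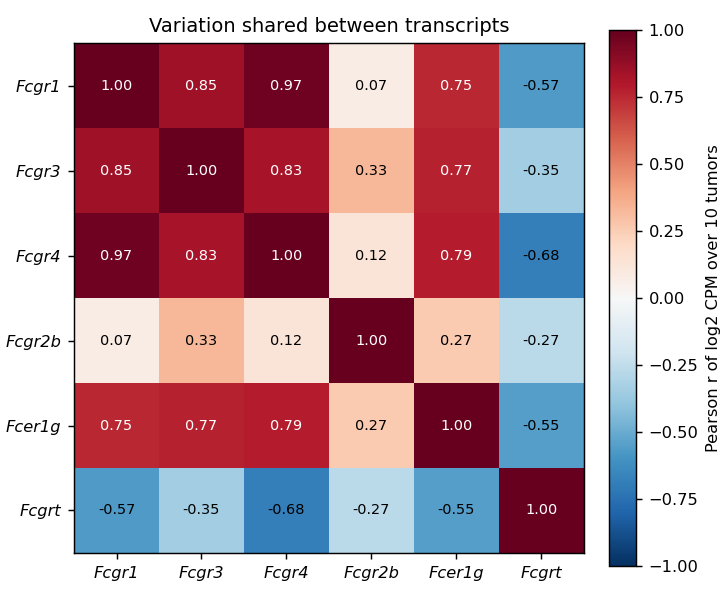
Pearson r of log2 CPM over the 10 tumors for each pair of the 6 transcripts, as number and colour (red positive, blue negative). Fcgr1, Fcgr3, Fcgr4 and Fcer1g form a block from 0.754 to 0.970, whereas the highest r of Fcgr2b is 0.331 and Fcgrt is negative with all others.

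Tumor-associated macrophages are known carriers of these receptors, so each transcript was set against the mean log2 CPM of 12 macrophage markers, among them Adgre1 (F4/80), Csf1r and C1qa. That mean averaged 7.938 ± 0.191 for sgNT and 7.912 ± 0.256 for sgCda (SD, n = 5 each; difference −0.026, exact permutation p = 0.865), highest in sgCda 3 (8.246) and sgNT 3 (8.202) and lowest in sgCda 4 (7.628). All 12 markers were detected, with summed CPM of 5288 to 8150 in sgNT and 5027 to 8543 in sgCda tumors. Of the 6 relations, 3 held after adjustment, namely those of the 3 activating receptors.

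Fcgr1 followed the macrophage markers with r = 0.879 (permutation p = 0.00122, adjusted p = 0.00732; Spearman rho = 0.927, permutation p = 0.000370, adjusted p = 0.00222; n = 10). Without sgCda 3 and sgNT 3, the tumors farthest from the median of the markers, r was 0.720 (exact permutation p = 0.0381, n = 8). For Fcgr3 r was 0.843 (permutation p = 0.00281, adjusted p = 0.00843; rho = 0.721, permutation p = 0.0227, adjusted p = 0.0454), and without the same tumors it was 0.656 (exact permutation p = 0.0738, n = 8). For Fcgr4 r was 0.783 (permutation p = 0.00902, adjusted p = 0.0180; rho = 0.842, permutation p = 0.00384, adjusted p = 0.0115), and without the same tumors it was 0.533 (exact permutation p = 0.176, n = 8). Each r was lower without those tumors, which had the highest macrophage markers. A narrower range of the markers can by itself lower r, so this step does not set Fcgr1 apart from Fcgr3 and Fcgr4. With group means taken away r was 0.884, 0.871 and 0.782 for Fcgr1, Fcgr3 and Fcgr4.

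Fcer1g gave r = 0.617 (permutation p = 0.0602, adjusted p = 0.0903; rho = 0.624, permutation p = 0.0598, adjusted p = 0.0897), which missed the threshold. Here sgCda 4 stood off, with the lowest macrophage markers and a high Fcer1g level, and without it r was 0.871 (permutation p = 0.00307). Without sgCda 3 and sgNT 3 it was 0.339 (exact permutation p = 0.397, n = 8). For Fcgr2b r was 0.133 (permutation p = 0.708, adjusted p = 0.708; rho = −0.103, permutation p = 0.784, adjusted p = 0.866), and for Fcgrt −0.224 (permutation p = 0.533, adjusted p = 0.639; rho = −0.0667, permutation p = 0.866, adjusted p = 0.866). Without sgCda 3 and sgNT 3, r was −0.113 for Fcgr2b (exact permutation p = 0.776) and 0.337 for Fcgrt (exact permutation p = 0.421). Whether these correlations differ from those of the activating receptors was not tested.

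**Figure D4:**
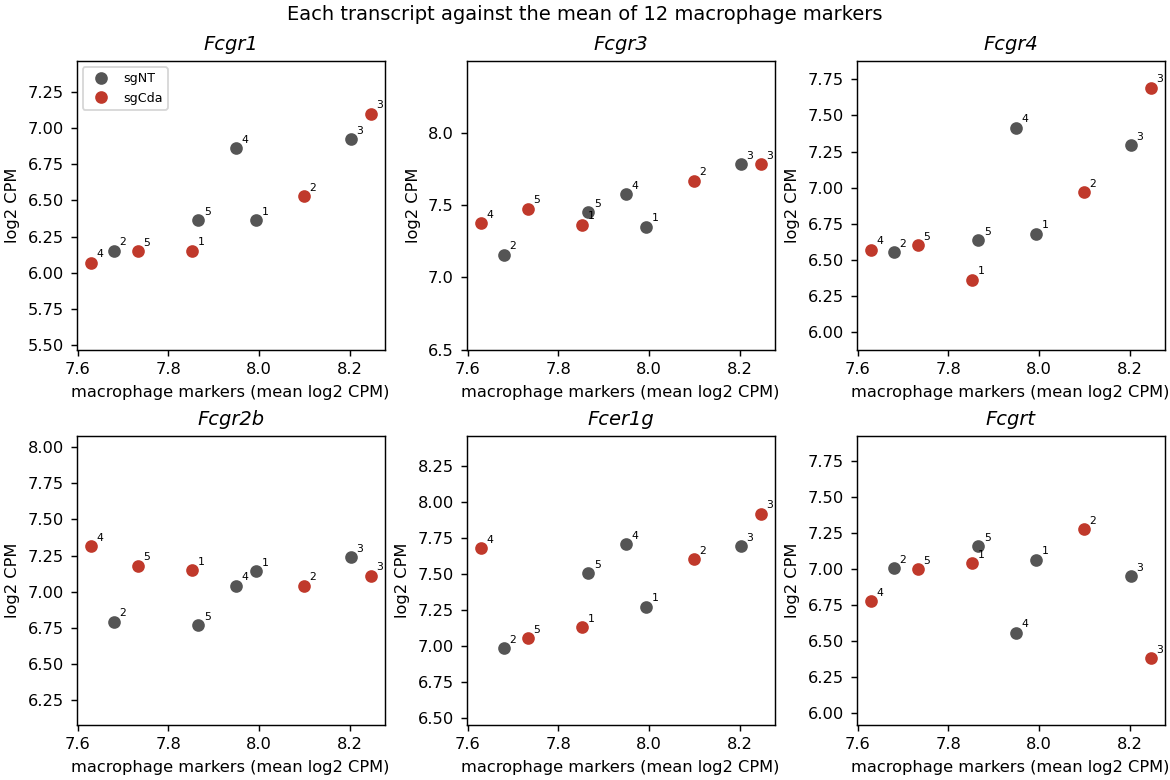
log2 CPM of each transcript (y axis, equal span in all panels) against the mean log2 CPM of 12 macrophage markers (x axis) in sgNT (grey) and sgCda (red) tumors, 1 point per tumor with its replicate number. Fcgr1 rises with the markers (r = 0.879), whereas Fcgr2b is level (r = 0.133) and Fcer1g in sgCda 4 lies above the trend.

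Other cell content moved with the same transcripts. Over the 10 tumors r with the skeletal muscle markers was 0.715 for Fcgr1, 0.719 for Fcgr3, 0.668 for Fcgr4 and 0.704 for Fcer1g, against 0.303 for Fcgr2b and −0.466 for Fcgrt. With the NK cell markers it was 0.845, 0.847, 0.829 and 0.771 for Fcgr1, Fcgr3, Fcgr4 and Fcer1g, with the T cell markers 0.817, 0.693, 0.738 and 0.583, and with the neutrophil markers −0.801, −0.447, −0.841 and −0.578. Fcgrt went the other way, with an r of 0.743 with neutrophil and 0.775 with dendritic cell markers and of −0.668 with NK cell markers. The part of each cell type in these relations was not tested.

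The transcripts most like each member over the tumors, among 13328 genes with a mean of at least 1 CPM, were ranked by Pearson r. For Fcgr1 these were Slco3a1 (r = 0.981), Arpc2 (0.979), a subunit of the actin-nucleating complex, and Pid1 (0.972). For Fcgr4 they were Ifit1bl1 (0.977), Slco3a1 again (0.969) and Nqo2 (0.963). For Fcgr3 they included Lgmn (0.957), a lysosomal protease, and Fth1 (0.948), the ferritin heavy chain. For Fcer1g they were Actb (0.971), Fxyd5 (0.950) and Pirb (0.945), an inhibitory receptor of myeloid cells.

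Fcgr2b had few transcripts like it. Its closest were Mcts1 (r = 0.920), 9130204K15Rik (0.910) and Coq10b (0.897), and 2 genes reached an r over 0.9, against 120 for Fcgr1, 74 for Fcgr4, 41 for Fcgr3 and 30 for Fcer1g. For Fcgrt 121 genes did so, led by Txndc15 (0.973), Tmem141 (0.973) and 2310057J18Rik (0.968), none of which was among the leading genes of the other members. With 10 tumors and 13328 genes some high values arise in any search, and no test was made.

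The rest of the pathway gave the same picture for the comparison of the guides. No gene of the 6 pathway lists passed the test in either direction, and none had an unadjusted p under 0.05. Of 12 listed signalling chains (with ITAM, or as Hcst with another motif) and receptors that use such chains, 10 were tested, 5 with a log2 fold change above 0 and 5 below (median −0.00083, from −0.19 for Clec4e to 0.24 for Hcst). Tyrobp, the DAP12 chain and closest functional relative of Fcer1g, had means of 252.9 ± 35.93 CPM (sgNT) and 244.8 ± 44.01 CPM (sgCda), a log2 fold change of −0.047 ± 0.14 SE. Hcst, the DAP10 chain, was at 6.91 ± 1.53 and 8.15 ± 4.02 CPM (log2 fold change 0.24 ± 0.30 SE).

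All 13 listed kinases and adaptors that act after ITAM phosphorylation were tested, 7 above 0 and 6 below (median 0.0018, from −0.21 for Plcg2 to 0.10 for Blnk). Syk had means of 61.08 ± 8.30 CPM (sgNT) and 58.81 ± 13.61 CPM (sgCda) (log2 fold change −0.054 ± 0.16 SE). Plcg2, the phospholipase downstream of SYK, had the lowest fold change of the list (−0.21 ± 0.15 SE, 213.9 ± 29.49 against 184.4 ± 37.71 CPM). All 8 inhibitory phosphatases and adaptors were tested, 2 above 0 and 6 below (median −0.031, from −0.17 for Cbl to 0.20 for Dok2). Inpp5d, which encodes the SHIP1 phosphatase used by FcγRIIB, was at 116.5 ± 7.72 and 119.0 ± 16.45 CPM (log2 fold change 0.031 ± 0.095 SE), and Ptpn11 (SHP2) at 166.4 ± 3.52 and 155.5 ± 13.18 CPM (−0.098 ± 0.065 SE).

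**Figure D5:**
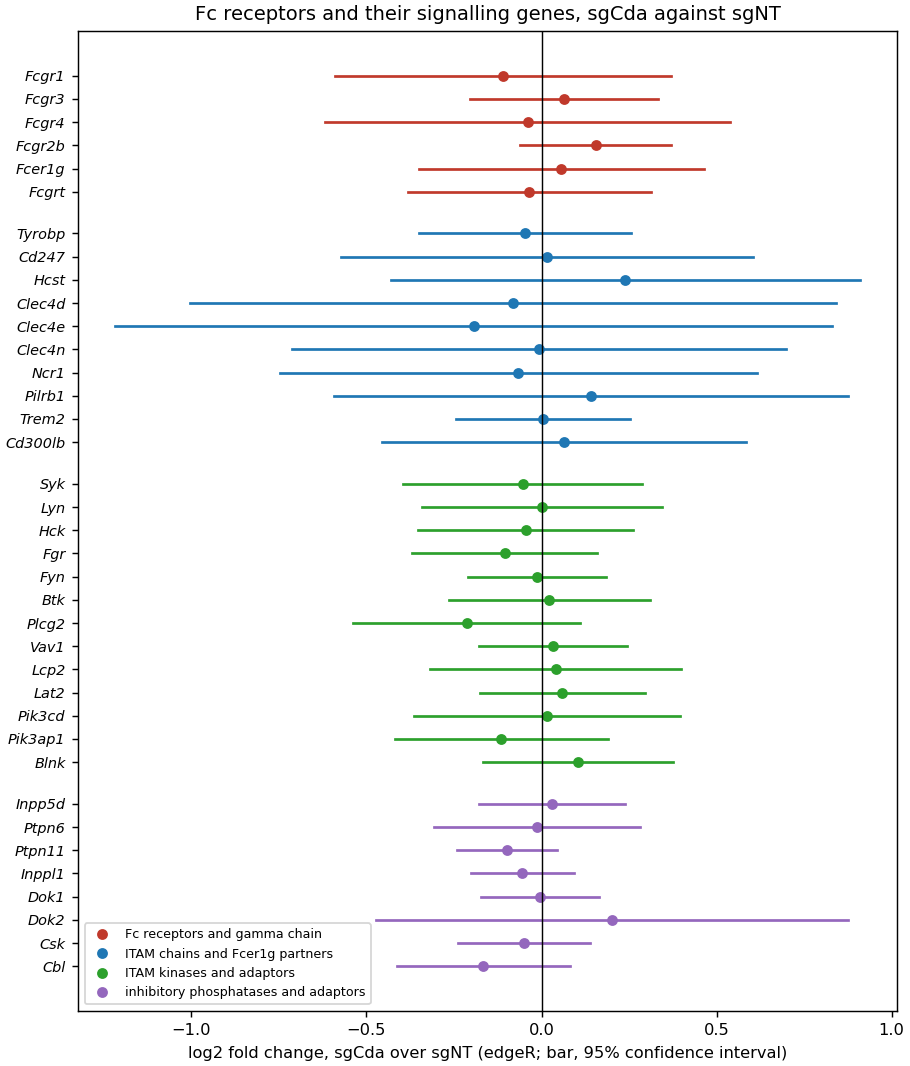
log2 fold change of sgCda over sgNT tumors (x axis, edgeR) for the 6 genes (red), signalling chains and partners (blue), ITAM kinases and adaptors (green) and inhibitory phosphatases and adaptors (purple); bars are 95% confidence intervals. Every interval includes 0.

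Transcripts of the ligands, made by plasma cells and B cells, varied widely between tumors. Of 12 listed immunoglobulin constant genes, 8 were tested, 6 above 0 and 2 below (median 0.12, from −0.58 for Ighm to 0.98 for Ighg1). Ighg2c, the heavy chain of the main activating IgG subclass of C57BL/6 mice, ranged from 47.03 to 121.0 CPM over the sgNT and from 16.92 to 285.9 CPM over the sgCda tumors, so that the sgCda range enclosed the sgNT range (log2 fold change 0.25 ± 0.61 SE). Ighg1 ranged from 2.66 to 7.26 CPM and from 0.248 to 28.52 CPM (log2 fold change 0.98 ± 0.80 SE), and its fold change was 0.092 without sgCda 5. The constant genes are a multigene family, and sequence shared among them was not measured here, so their counts are uncertain.

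Of 12 other listed immunoglobulin receptors, among them the cytosolic antibody receptor Trim21, 8 were tested, 4 above 0 and 4 below (median 0.010, from −0.75 for Fcrl5 to 0.36 for Fcrla), and Fcer2a, Fcmr, Fcamr and Pigr did not pass the filter. Trim21 had means of 56.55 ± 5.38 CPM (sgNT) and 51.11 ± 4.29 CPM (sgCda), a log2 fold change of −0.15 ± 0.083 SE. B2m, the light chain of FcRn, was at 3604 ± 281.9 and 3690 ± 609.3 CPM (log2 fold change 0.034 ± 0.12 SE), and Alb, its other cargo, did not pass the filter.

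Marker lists of the cells that can carry these receptors also gave no gene past the adjusted threshold. Summed CPM was 60.17 to 112.2 in sgNT and 57.20 to 156.6 in sgCda tumors for neutrophil markers, 96.74 to 194.7 and 114.9 to 306.1 for NK cell markers, 41.58 to 153.2 and 77.61 to 107.5 for mast cell markers, 37.18 to 101.1 and 9.56 to 121.4 for B and plasma cell markers, and 240.9 to 381.2 and 172.8 to 566.1 for T cell markers. For dendritic cell markers it was 154.9 to 234.9 and 135.9 to 305.0, for endothelial markers 99.71 to 148.8 and 86.25 to 141.4, and for epithelial cancer cell markers 694.7 to 1057 and 675.0 to 1176. No marker was at 0 in every tumor. All 6 tested neutrophil markers had a log2 fold change above 0 (median 0.44), with the smallest p for Cxcr2 (log2 fold change 0.54). So had all 8 T cell (median 0.11, Cd2) and all 8 skeletal muscle markers (median 1.7, Ttn), none with an unadjusted p under 0.05. Genes of a list share cell content, so these signs are not independent, and 52.9% of all tested genes were above 0. The mean log2 CPM of the list differed (sgCda minus sgNT) by 0.29 for neutrophil markers (exact permutation p = 0.444). It differed by 0.022 for T cell (exact permutation p = 0.913) and by 1.7 for skeletal muscle markers (exact permutation p = 0.437). Cd79a among 5 tested B cell markers (median 0.13) and Epcam among 8 epithelial markers (median 0.21) alone had an unadjusted edgeR p under 0.05. Their log2 fold changes were 0.51 and 0.78 (Epcam 0.40 without sgCda 2). Of all 15299 tested genes 2.50% had such a p, so nothing is read from these genes. The medians were −0.0072 for macrophage (Mertk), 0.17 for NK cell (Klrb1c), 0.11 for mast cell (Fcer1a), 0.13 for dendritic cell (Ccr7) and −0.24 for endothelial markers (Cdh5), the gene in parentheses having the smallest p of its list. The part of these cells in the values of the Fc receptors was not tested.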

How the data were processed

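The authors extracted total RNA with TRIzol, selected polyadenylated RNA, made stranded libraries and sequenced the first 50 bases. Reads were mapped to GRCm38/mm10 with TopHat and Bowtie, and the values used are raw gene counts as deposited from HTSeq, 1 column per tumor. The strand setting and annotation release are not given in the sources used here. The 5 HTSeq summary lines were left out. Genes were filtered with filterByExpr (minimum count 10, minimum total 15), scaled by TMM and tested with the quasi-likelihood test of edgeR 4.0.16 in R 4.3.3 over all 15299 genes, with Benjamini-Hochberg adjustment and a threshold of 0.05. Alternatives used DESeq2 1.42.0 and limma 3.58.1. log2 CPM for ratios and correlations used a prior count of 2. Correlations used 100000 resamples, and single values all splits of the tumors into 5 and 5, two-sided. The floor of 3 counts is 0.0760 to 0.107 CPM and covers counting error only. The edgeR script was tested on simulated data. Named genes were the 6 members, from each other list the gene with the smallest p and Tyrobp, Syk, Inpp5d, B2m, Trim21 or Ighg2c, the 3 most alike genes per member (for Fcgr3, 1 of them is not reported here), and Cda. Genes that bound a list's range, or that illustrate a list, are named as well and were chosen after their values were seen. Members and lists were chosen with earlier results of these data known.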

Additional observations from a re-analysis of the deposited data

How the results depend on the processing

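No gene passed the adjusted threshold in edgeR or in any of the 19 alternatives, among them the DESeq2 Wald test and limma-voom, while genes with an unadjusted p under 0.05 ranged from 280 to 830 (382 in the reported fit). Of 114 alternative log2 fold changes of the 6 genes 15 changed sign, and of 398 of the other named genes 15 did, none past the threshold. The cause of these changes was not tested. With the skeletal muscle mean as covariate the values were −0.00022 for Fcgr3, −0.055 for Fcer1g, 0.030 for Fcgrt, −0.063 for Hcst, −0.0093 for Cd2 and −0.024 for Inpp5d, and with the sign kept −0.27 for Fcgr1, −0.20 for Fcgr4 and −0.17 for Syk; with limma-voom −0.071 for Ighg1 and −0.30 for Ighg2c. The macrophage mean as covariate turned no member. Leaving out 1 tumor gave −0.33 to −0.0026 for Fcgr1, −0.0081 to 0.15 for Fcgr3, −0.32 to 0.094 for Fcgr4, 0.099 to 0.22 for Fcgr2b, −0.065 to 0.15 for Fcer1g and −0.14 to 0.075 for Fcgrt. It gave −0.13 to 0.045 for Tyrobp, −0.18 to 0.043 for Syk, −0.019 to 0.10 for Inpp5d, −0.063 to 0.40 for Hcst, −0.10 to 0.41 for Cd2, −0.055 to 0.095 for B2m −0.52 to 0.53 for Ighg2c, 0.092 to 1.30 for Ighg1 and 0.40 to 0.93 for Epcam. Other single values that turned were 0.0048 (Tyrobp, without sgNT 3) and −0.015 (Inpp5d, without sgCda 3). The difference of the Fcgr1 to Fcgr2b ratio ranged from −0.48 without sgCda 3 (exact permutation p = 0.0397) to −0.17 without sgCda 4, and r with the macrophage markers from −0.126 to 0.474 for Fcgr2b, 0.476 to 0.871 for Fcer1g and −0.417 to 0.231 for Fcgrt.

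Replicate numbers were not used as pairs in the reported fit. Same-numbered tumors had deviations correlated at −0.028, −0.024, 0.33, −0.43 and 0.34, and only numbers 3 and 5 correlated best with their own. These few values cannot exclude that tumors of the same number shared a cage, day or batch. With the replicate block 0 genes passed, 325 had an unadjusted p under 0.05, Ighg2c was at −0.26, and r with the macrophage markers was −0.0956 for Fcgr2b, 0.0956 for Fcgrt and 0.804 for Fcer1g (permutation p = 0.00589). With 5 tumors a group, the confidence intervals given for each receptor hold the changes that remain compatible with these counts. The smallest change that could be detected was not determined.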

Other observations

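Since Ifit1bl1 led the transcripts most like Fcgr4, 2 short lists of interferon response genes were added after that had been seen, and they are described with no test. The mean log2 CPM of 8 type I response genes (among them Ifit1, Isg15 and Mx1) ran from 5.94 to 6.99 in sgNT and from 5.88 to 6.47 in sgCda tumors, highest in sgNT 4. Over the 10 tumors its Pearson r was 0.364 with Fcgr1, 0.396 with Fcgr4, 0.317 with Fcgr3, 0.405 with Fcgr2b, 0.382 with Fcer1g and −0.298 with Fcgrt. The mean of the 6 tested genes of the interferon gamma list (among them Gbp2 and Irf1) ran from 8.28 to 8.77 and from 8.10 to 8.52, highest in sgNT 3. Its r was 0.717 with Fcer1g, 0.613 with Fcgr1, 0.605 with Fcgr4, 0.534 with Fcgr3, 0.323 with Fcgr2b and −0.324 with Fcgrt. Beside these stand the values with the macrophage markers, 0.879 for Fcgr1, 0.843 for Fcgr3, 0.783 for Fcgr4, 0.617 for Fcer1g, 0.133 for Fcgr2b and −0.224 for Fcgrt. No difference between these correlations was tested.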
